A study of Mus musculus with 18 samples.

Results

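The interferon-gamma GTPases and chemokines are 10 genes of the mouse response to interferon-gamma: Igtp, Irgm1, Irgm2 and Ifi47 of the immunity-related GTPases (IRGs), Gbp2, Gbp3 and Gbp7 of the guanylate-binding proteins (GBPs), the chemokines Cxcl9 and Cxcl10, and the transcription factor Irf1. The list was chosen by pathway with earlier results of these arrays known, so the tests below describe these arrays and are not independent evidence of a direction. A gene was measured through a transcript cluster, a set of array probes along the gene, that carried its symbol alone. Of the 10 genes, 9 had such a cluster, among 27030 genes measured in this way, and where a gene had several clusters the one with the highest mean over all arrays was taken. The only cluster found for Ifi47 also carried Olfr56, so Ifi47 has no value here.

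The levels came from 18 arrays of mammary tissue of female C57Bl/6 mice, 6 in each of 3 groups. The 6 M/D-driven tumors arose in mice that carried a subcutaneous pellet of 50 mg medroxyprogesterone acetate (MPA, a synthetic progestin, released over 90 days) from 6 to 9 weeks of age and received 7,12-dimethylbenz[a]anthracene (DMBA, a carcinogenic hydrocarbon) 6 times by gavage, at 200 uL of 5 mg/mL in corn oil, spread over weeks 1 to 7 with week 4 left out. They were taken at 0.7 to 1 cm2. The 6 hyperplastic glands had the same MPA and DMBA exposure and no tumor developed in them, and the 6 normal glands were M/D-naïve, with their age at collection not stated. The model is chemical and hormonal, with no transgene, and whether the glands kept their lymph node is not stated in the sources used here.

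Interferon-gamma is made mainly by T cells and natural killer cells. It binds a receptor of Ifngr1 and Ifngr2 chains, which signals through kinases such as Jak1 to gamma-activated sites in promoters such as that of Irf1. Irf1 protein in turn binds interferon-stimulated response elements in many further genes. The IRGs and GBPs that follow are large GTPases best known for attacking vacuoles that hold intracellular microbes, with Irgm1, Irgm2 and Igtp (also called Irgm3) as the regulatory IRGs that keep the effector IRGs off the cell's own membranes. Cxcl9 and Cxcl10 recruit activated T cells and natural killer cells through the receptor Cxcr3. In a mammary gland these genes can be switched on in leukocytes, endothelium, stroma and epithelium alike.

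Promoters are shown, apart from those of Gbp3, where they hold letters that the factors of this cascade are known to bind. The promoters of Gbp3 and Cxcl9 and the second promoter of Irf1 were searched but are not shown. All 9 measured genes had a promoter in RefSeq (build GRCm38.p6), from 250 bases before to 50 bases after a start site, and 11 promoters in all, since Gbp3 and Irf1 have 2 start sites each. Searched on both strands, the core of the interferon-stimulated response element, GAAANNGAAA, was found in 7 of the 9 genes and in 3.44% of 32851 promoters of the same length. The member counts are of genes and the shares of single promoters, so Gbp3 and Irf1 had 2 windows each in which to match. The gamma-activated site, TTCNNNGAA, was found in 4 of the 9 genes and in 8.30% of promoters. The NF-kappaB form GGANTTTCC was found in 1 of the 9 and in 1.25% of promoters. It was taken after a form longer by 1 G had no match in the 9 genes, so its count depends on that choice. The motifs do not share bases in any of these windows, although matches of the same motif overlap in Gbp3 and Irgm1. In the sequences that follow, capitals mark the matches, as GAAA repeats or their reverse complement for the response element as TTC to GAA for the gamma-activated site, and as the NF-kappaB form at the second match of Cxcl10.
Irf1, chr11:53769764-53770063, plus strand: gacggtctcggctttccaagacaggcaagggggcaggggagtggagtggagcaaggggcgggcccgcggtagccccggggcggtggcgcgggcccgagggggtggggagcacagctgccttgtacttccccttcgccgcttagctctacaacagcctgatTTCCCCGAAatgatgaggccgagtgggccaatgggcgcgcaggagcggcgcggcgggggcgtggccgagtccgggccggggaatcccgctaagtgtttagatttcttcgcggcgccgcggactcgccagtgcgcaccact
Igtp, chr11:58199306-58199605, plus strand: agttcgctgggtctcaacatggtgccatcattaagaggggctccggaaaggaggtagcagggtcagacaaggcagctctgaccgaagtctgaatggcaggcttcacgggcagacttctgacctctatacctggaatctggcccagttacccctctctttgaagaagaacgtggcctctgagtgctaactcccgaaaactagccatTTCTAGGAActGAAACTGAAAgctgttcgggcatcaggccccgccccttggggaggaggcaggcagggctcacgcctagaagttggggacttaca
Irgm2, chr11:58214727-58215026, plus strand: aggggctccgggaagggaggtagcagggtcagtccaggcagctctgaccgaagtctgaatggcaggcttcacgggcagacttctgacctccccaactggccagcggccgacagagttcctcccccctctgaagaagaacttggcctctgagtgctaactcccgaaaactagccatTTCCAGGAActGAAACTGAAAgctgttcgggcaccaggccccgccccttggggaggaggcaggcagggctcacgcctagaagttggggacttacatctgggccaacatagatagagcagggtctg
Irgm1, chr11:48871371-48871670, minus strand: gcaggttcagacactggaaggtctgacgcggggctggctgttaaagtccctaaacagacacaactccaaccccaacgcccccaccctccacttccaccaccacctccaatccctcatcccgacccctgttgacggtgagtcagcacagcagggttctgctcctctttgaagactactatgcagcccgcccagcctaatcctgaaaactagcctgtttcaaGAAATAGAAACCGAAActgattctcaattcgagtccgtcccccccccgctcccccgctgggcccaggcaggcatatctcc
Gbp2, chr3:142620413-142620712, plus strand: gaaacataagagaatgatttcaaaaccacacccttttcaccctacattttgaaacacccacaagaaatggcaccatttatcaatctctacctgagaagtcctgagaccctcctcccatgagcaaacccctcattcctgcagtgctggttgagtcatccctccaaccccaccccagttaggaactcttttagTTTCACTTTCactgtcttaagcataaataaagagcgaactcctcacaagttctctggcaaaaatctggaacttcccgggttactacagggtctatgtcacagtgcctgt
Gbp7, chr3:142530086-142530385, plus strand: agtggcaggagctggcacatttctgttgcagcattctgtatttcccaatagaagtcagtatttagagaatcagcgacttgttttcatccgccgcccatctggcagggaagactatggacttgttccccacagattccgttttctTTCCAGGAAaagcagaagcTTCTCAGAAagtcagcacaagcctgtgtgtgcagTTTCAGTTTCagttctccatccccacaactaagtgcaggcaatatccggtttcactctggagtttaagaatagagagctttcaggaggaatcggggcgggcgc
Cxcl10, chr5:92348840-92349139, minus strand: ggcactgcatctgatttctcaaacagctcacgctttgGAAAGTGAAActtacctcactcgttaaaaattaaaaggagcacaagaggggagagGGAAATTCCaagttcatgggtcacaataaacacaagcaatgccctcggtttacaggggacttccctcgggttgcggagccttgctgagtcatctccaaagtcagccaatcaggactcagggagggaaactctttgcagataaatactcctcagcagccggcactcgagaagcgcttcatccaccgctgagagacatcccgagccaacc
Irf1 held a gamma-activated site at -90 to -82 and no response element in its windows. Igtp and Irgm2, neighbors on chromosome 11, held both motifs with 2 bases between them, and their promoters shared a run of 61 identical bases downstream of both motifs, from -11 in Igtp and from -41 in Irgm2. Gbp7 held 2 gamma-activated sites at -106 to -98 and -87 to -79 and a response element at -53 to -44. Gbp2, Gbp3 and Irgm1 held the response element alone. Cxcl10 held it farthest out, at -213 to -204, with the NF-kappaB form at -158 to -150. Cxcl9 had none of the 3 motifs in its window, which says only that these letters are absent there. A match is a run of letters and was not tested as a site.

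**Figure D1:**
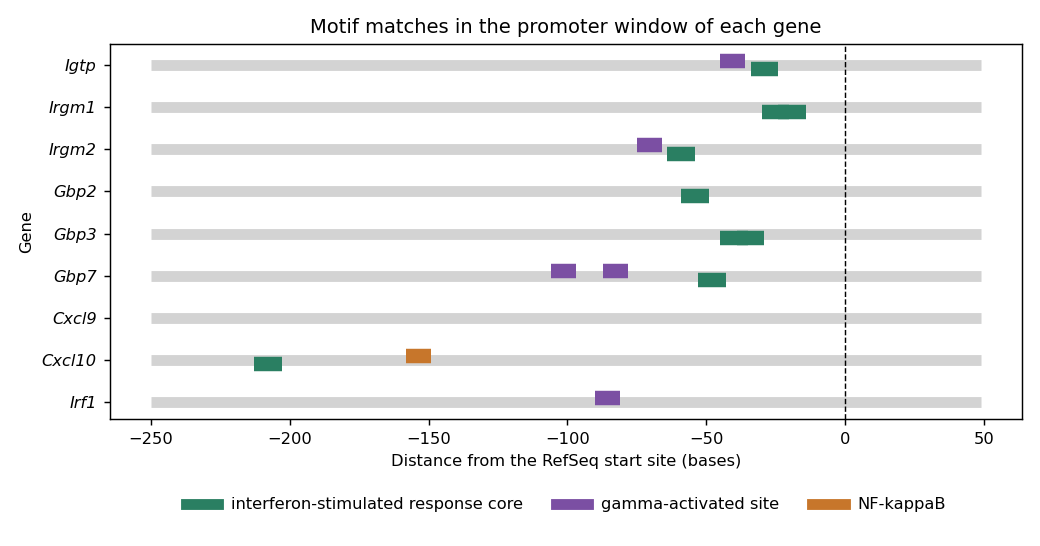
Matches of the 3 motifs in the promoter window of each of the 9 genes (grey bar; x axis, bases from the RefSeq start site, negative before it). All matches of the other genes lie between -106 and the start site, those of Cxcl10 lie at -213 and -158, and Cxcl9 has none.

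Levels are log2 values normalized by the authors with RMA (robust multi-array average), so 1 unit is a doubling, and a level of one gene cannot be set against that of another. As a yardstick for absence, the 95th percentile of 1078 olfactory receptor genes lay at 5.36, and all 9 genes had group means above it in all 3 groups. Array medians ran from 5.31 to 5.51. Among the arrays, Tumor 1 had the lowest tumor level for 9 of the 9 genes, and Tumor 3 stood apart by its tissue markers, with a mammary epithelium score (11 genes, each centred on its mean over the arrays) of -1.69 against 0.09 to 1.07 in the other tumors and the highest macrophage score, 1.48. All 11 epithelial genes were above the yardstick in every group mean. Every test is a moderated test of limma across all 27030 genes and 18 arrays with Benjamini-Hochberg adjustment, and genes with an adjusted p under 0.05 are named as called, as higher or as lower. The study describes a single experiment whose samples are mice, and the labels tie no array number to a mouse.

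The hyperplastic glands held the highest mean for 8 of the 9 genes, and the tumors the lowest for 7. Of these, 6 (Irgm1, Gbp2, Gbp3, Gbp7, Cxcl9 and Cxcl10) ran from hyperplastic through normal to tumor. Igtp and Irgm2 were highest in the hyperplastic glands with normal and tumor means close together, and Irf1 ran from normal through hyperplastic to tumor. In the tumors 9 of the 9 genes were lower than in the hyperplastic glands at an adjusted p under 0.05, where 8.57% of all genes were. Against normal glands 4 of 9 were lower in tumors, where 12.7% of all genes were. In the hyperplastic glands 3 of 9 were higher than in normal glands, where 1.01% of all genes were. Because the 3 comparisons share groups, each is read on its own.

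**Figure D2:**
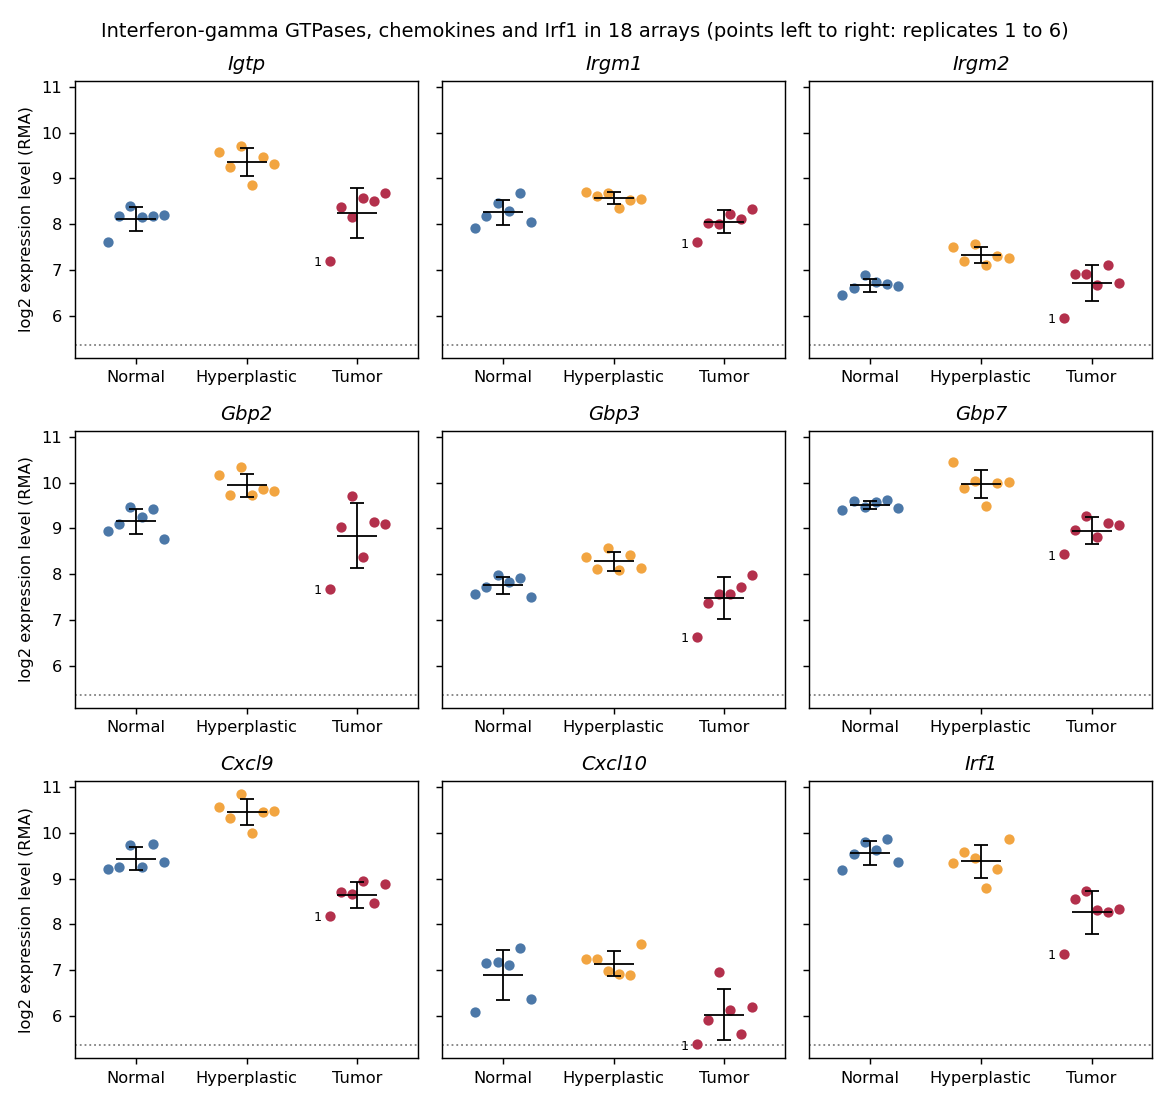
Log2 RMA level of each of the 9 genes in the 18 arrays (y axis), with replicates 1 to 6 of each group from left to right, group mean and SD (n = 6) in black and the olfactory receptor yardstick of 5.36 as a dotted line. The point marked 1 is Tumor 1, the lowest tumor in all 9 panels, and the hyperplastic group has the highest mean in every panel but that of Irf1.

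Irf1, the transcription factor of the cascade, was the only gene of the group with its highest mean in normal glands. Its level ran from 9.18 to 9.87 with a median of 9.59 in the normal glands, from 8.79 to 9.87 with a median of 9.39 in the hyperplastic glands and from 7.36 to 8.72 with a median of 8.32 in the tumors. The normal and hyperplastic arrays interleaved, while all 6 tumors lay below every array of both other groups. Irf1 fell by 1.31 on the log2 scale between normal glands and tumors (SE 0.20, adjusted p = 7.54e-05), a 2.47-fold difference, and by 1.12 between hyperplastic glands and tumors (SE 0.20, adjusted p = 0.000767). Between hyperplastic and normal glands the change was -0.19 (95% interval -0.62 to 0.24, adjusted p = 0.811). A second cluster of Irf1 had lower levels, with means of 6.13 in normal glands, 5.87 in hyperplastic glands and 5.43 in tumors, and the same order.

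Igtp, a regulatory IRG, had the largest rise of the group in the hyperplastic glands. Its level ran from 7.62 to 8.40 with a median of 8.18 in normal glands and from 8.85 to 9.70 with a median of 9.38 in hyperplastic glands, with no overlap. The tumors, from 7.20 to 8.67 with a median of 8.44, overlapped the normal glands and lay below every hyperplastic array. Igtp was 2.36-fold higher in hyperplastic than in normal glands (log2 change 1.24, SE 0.21, adjusted p = 0.00638) and fell by 1.11 from hyperplastic glands to tumors (SE 0.21, adjusted p = 0.00108). The difference between tumors and normal glands was 0.13 (95% interval -0.31 to 0.57, adjusted p = 0.689), and 0.34 without Tumor 1 (adjusted p = 0.0992).

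Irgm2, another regulatory IRG, had the same order at a smaller scale. Normal glands ran from 6.45 to 6.88 with a median of 6.67, hyperplastic glands from 7.10 to 7.57 with a median of 7.28, and tumors from 5.95 to 7.10 with a median of 6.81. The hyperplastic arrays lay above all others, with the highest tumor just below the lowest hyperplastic array. Irgm2 was 1.57-fold higher in hyperplastic than in normal glands (log2 change 0.65, SE 0.15, adjusted p = 0.0317). That call was lost, with adjusted p from 0.0558 to 0.0869, when any one of Hyperplastic 1, 3 or 5 or Normal 1, 2, 5 or 6 was left out. Irgm2 fell by 0.61 from hyperplastic glands to tumors (SE 0.15, adjusted p = 0.00571), and its tumor and normal means differed by 0.04 (95% interval -0.26 to 0.35).

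Irgm1, the regulatory IRG best known for defense against mycobacteria, varied least between the groups. It ran from 7.91 to 8.67 with a median of 8.23 in normal glands, from 8.34 to 8.70 with a median of 8.58 in hyperplastic glands and from 7.60 to 8.33 with a median of 8.06 in tumors. Normal and hyperplastic arrays overlapped, and the tumors lay just below the hyperplastic arrays. Irgm1 fell by 0.52 from hyperplastic glands to tumors (SE 0.13, adjusted p = 0.0062). Its changes of 0.31 from normal to hyperplastic glands (adjusted p = 0.257) and -0.21 from normal glands to tumors (adjusted p = 0.229) did not pass the test.

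Gbp2 and Gbp3 are GBPs that coat pathogen vacuoles in mouse cells. Gbp2 ran from 8.76 to 9.46 with a median of 9.18 in normal glands, from 9.73 to 10.35 with a median of 9.83 in hyperplastic glands and from 7.68 to 9.71 with a median of 9.07 in tumors. Its tumor SD of 0.71 (n = 6) was the widest of the 9 genes in any group, with Tumor 1 lowest and Tumor 3 highest. Gbp3 ran from 7.50 to 7.98 with a median of 7.78 in normal glands, from 8.08 to 8.57 with a median of 8.25 in hyperplastic glands and from 6.63 to 7.98 with a median of 7.56 in tumors. For both genes every hyperplastic array lay above every normal gland and every tumor. The log2 changes from normal to hyperplastic glands were 0.78 for Gbp2 (SE 0.25, adjusted p = 0.128) and 0.53 for Gbp3 (SE 0.17, adjusted p = 0.128), which did not pass the test. Both passed it when Tumor 1 was left out of the shared estimate of the spread (adjusted p = 0.0366 and 0.0249). From hyperplastic glands to tumors Gbp2 fell by 1.10 (SE 0.25, adjusted p = 0.00412) and Gbp3 fell by 0.81 (SE 0.17, adjusted p = 0.00225), while against normal glands the tumor changes were -0.32 and -0.28 (adjusted p = 0.375 and 0.231).

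Gbp7, of the same cluster on chromosome 3, had tumors apart from both other groups. The normal glands were tightly grouped, from 9.40 to 9.61 with a median of 9.52. The hyperplastic glands ran from 9.48 to 10.45 with a median of 10, and the tumors from 8.43 to 9.28 with a median of 9.03. All 6 tumors lay below every other array, and only Hyperplastic 4 fell within the normal range. Gbp7 fell by 1.02 from hyperplastic glands to tumors (SE 0.14, adjusted p = 4.98e-05) and by 0.56 from normal glands to tumors (SE 0.14, adjusted p = 0.00391). The change from normal to hyperplastic glands was 0.46 (SE 0.14, adjusted p = 0.106).

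Cxcl9, a chemokine induced mainly by interferon-gamma, separated all 3 groups. Its level ran from 9.22 to 9.76 with a median of 9.31 in normal glands, from 9.99 to 10.85 with a median of 10.47 in hyperplastic glands and from 8.19 to 8.95 with a median of 8.68 in tumors. No array of one group reached the range of another. Cxcl9 was 2.02-fold higher in hyperplastic than in normal glands (log2 change 1.01, SE 0.15, adjusted p = 0.00207). It was 3.50-fold lower in tumors than in hyperplastic glands (log2 change -1.81, SE 0.15, adjusted p = 2.76e-07) and fell by 0.79 from normal glands to tumors (SE 0.15, adjusted p = 0.000436).

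Cxcl10, a chemokine for the same receptor that type I interferon also induces, came nearest to the yardstick, with Tumor 1 just above it, and had wide groups. It ran from 6.08 to 7.48 with a median of 7.12 in normal glands, from 6.89 to 7.57 with a median of 7.11 in hyperplastic glands and from 5.38 to 6.96 with a median of 6.02 in tumors. Tumor 3, at 6.96, reached into the ranges of both other groups, and Normal 1 and Normal 6 lay within the tumor range. Cxcl10 fell by 1.12 from hyperplastic glands to tumors (SE 0.25, adjusted p = 0.00416) and by 0.87 from normal glands to tumors (SE 0.25, adjusted p = 0.0129, lower than the normal mean in 5 of 6 tumors). The hyperplastic mean exceeded the normal mean by 0.25 (95% interval -0.29 to 0.78, adjusted p = 0.799).

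**Figure D3:**
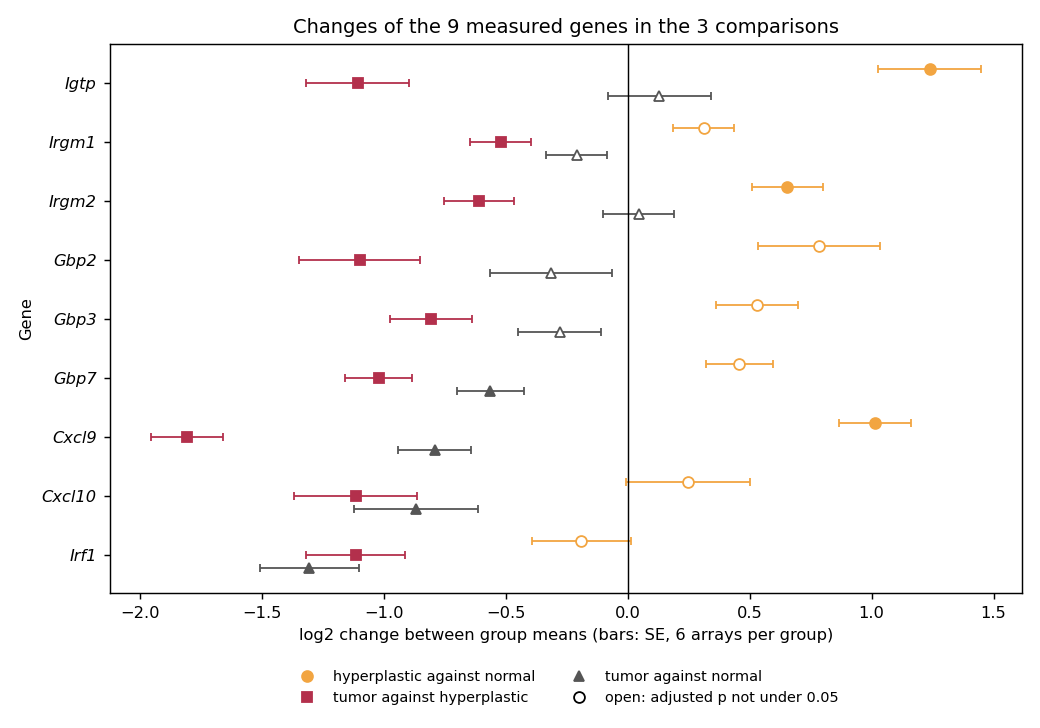
Log2 change of each of the 9 genes in the 3 comparisons (x axis), with SE as bars and filled symbols where the adjusted p was under 0.05. All 9 filled squares of tumor against hyperplastic lie below 0, from -0.52 for Irgm1 to -1.81 for Cxcl9, and the filled circles of hyperplastic against normal are Igtp, Irgm2 and Cxcl9.

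The first comparison asks how tumors differ from equally exposed glands without a tumor. All 9 measured genes were lower in the tumors, where 8.57% of all genes tested were called lower and 11.9% higher. For 8 of the 9, all but Cxcl10, every tumor lay below every hyperplastic gland, as held for 4.05% of all genes. Their median change was -1.10 against 0.04 over all genes. All 9 calls held under the alternatives of scaling, filtering and variance model and with each array left out, while none passes the study's stated limit of a log2 change over 2.

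Set against M/D-naïve glands, the tumors were lower in Irf1, Gbp7, Cxcl9 and Cxcl10 and not called for Igtp, Irgm1, Irgm2, Gbp2 and Gbp3. That is 4 of 9 called lower and 0 higher, where 12.7% of all genes were called lower and 19.5% higher. For 3 of these, Irf1, Gbp7 and Cxcl9, no tumor reached the normal range, as held for 7.00% of all genes. The median of the 9 changes was -0.32 against 0.04 over all genes. The count of 4 was also reached without Tumor 1 and without Tumors 3 and 6 and Hyperplastic 3.

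The exposed glands without a tumor were higher than naïve glands in Igtp, Irgm2 and Cxcl9, 3 of 9 called, where 1.01% of all genes were called higher and 0.655% lower. Every hyperplastic gland lay above every normal gland for 5 of the 9, Gbp2 and Gbp3 added, as held for 2.42% of all genes. The median change was 0.53 against 0.01 over all genes. The number of calls ranged from 2 to 5 with 1 array left out. It was 5 without Tumor 1 and 2 without any one of the 7 arrays named for Irgm2. It was 6 where only these 2 groups were fitted, Gbp2, Gbp3 and Gbp7 added. Calls over all genes rose too, from 274 higher in the main fit to 354 without Tumor 1 and 1002 with only these 2 groups.

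The ligand and the receptor side of the pathway were measured in part, by 4 of 6 listed genes. Ifng itself stayed below the yardstick, at 4.60 to 4.88 with a median of 4.68 in normal glands, 4.55 to 5.18 with a median of 4.94 in hyperplastic glands and 4.46 to 4.62 with a median of 4.54 in tumors. At such a level a difference is near the array's floor. It fell by 0.38 from hyperplastic glands to tumors (SE 0.08, adjusted p = 0.00304) and had changes of 0.21 from normal to hyperplastic glands and -0.17 from normal glands to tumors (adjusted p = 0.235 and 0.137, the latter 0.0305 where only these 2 groups were fitted). Ifngr1, the ligand-binding chain, ran from 8.90 to 9.31 with a median of 9.13 in normal glands, from 9.02 to 9.40 with a median of 9.20 in hyperplastic glands and from 7.57 to 8.68 with a median of 8.41 in tumors, with the tumors apart. It fell by 0.82 against normal (SE 0.14, adjusted p = 0.00016) and by 0.89 against hyperplastic glands (SE 0.14). The kinase gene Jak1 fell by 0.77 against normal and by 0.68 against hyperplastic glands, again without overlap. Ifngr2, the signaling chain, was called in none of the 3 comparisons. Its tumor mean exceeded the normal mean by 0.20 (adjusted p = 0.147), and without Tumor 1 by 0.32 (adjusted p = 0.000511). Every hyperplastic gland lay above every normal gland for Ifngr2, by 0.25 between the means (adjusted p = 0.277, and 0.0332 without Tumor 1).

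Other GTPases of the 2 families, from lists drawn with earlier results known, are measured beside the group. Of 8 other GBPs listed 4 were measured, Gbp4, Gbp8, Gbp9 and Gbp11, and 4 of 4 were lower in tumors in both comparisons. Of all genes, 12.7% were called lower against normal and 8.57% against hyperplastic glands. Gbp11 ran from 8.55 to 8.99 in normal glands, from 8.91 to 9.76 in hyperplastic glands and from 6.88 to 7.59 in tumors, and it fell by 1.90 from hyperplastic glands to tumors (SE 0.14). Gbp4 fell by 1.74, Gbp8 fell by 1.72 and Gbp9 fell by 1.48. Against normal glands the 4 changes ran from -1.24 for Gbp9 to -1.36 for Gbp4, with a median of -1.33, while Gbp2 and Gbp3 did not pass the same test. From normal to hyperplastic glands 0 of 4 were called (median 0.40, the nearest being Gbp11 at 0.54, adjusted p = 0.0619, and 0.0377 without Tumor 1). These genes are close copies, so probes can bind a neighbor's transcript, and how much of each signal is shared was not tested.

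Of 10 other IRG genes listed 4 were measured, with different orders of the groups. Gm12250, which encodes the effector Irgb10, had the same order as Igtp, from 5.91 to 6.98 with a median of 6.73 in normal glands, from 7.53 to 8.51 with a median of 8.0 in hyperplastic glands and from 6.47 to 7.17 with a median of 6.88 in tumors. The hyperplastic arrays stood clear of both other groups. Gm12250 rose by 1.38 from normal to hyperplastic glands (SE 0.19, adjusted p = 0.00137) and fell by 1.15 from there to tumors (SE 0.19, adjusted p = 0.000359). The gene 9930111J21Rik2 fell by 1.66 from normal glands and by 1.49 from hyperplastic glands to tumors, with -0.18 from normal to hyperplastic glands, and Gm5431 fell by 0.68 and 0.58.

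**Figure D4:**
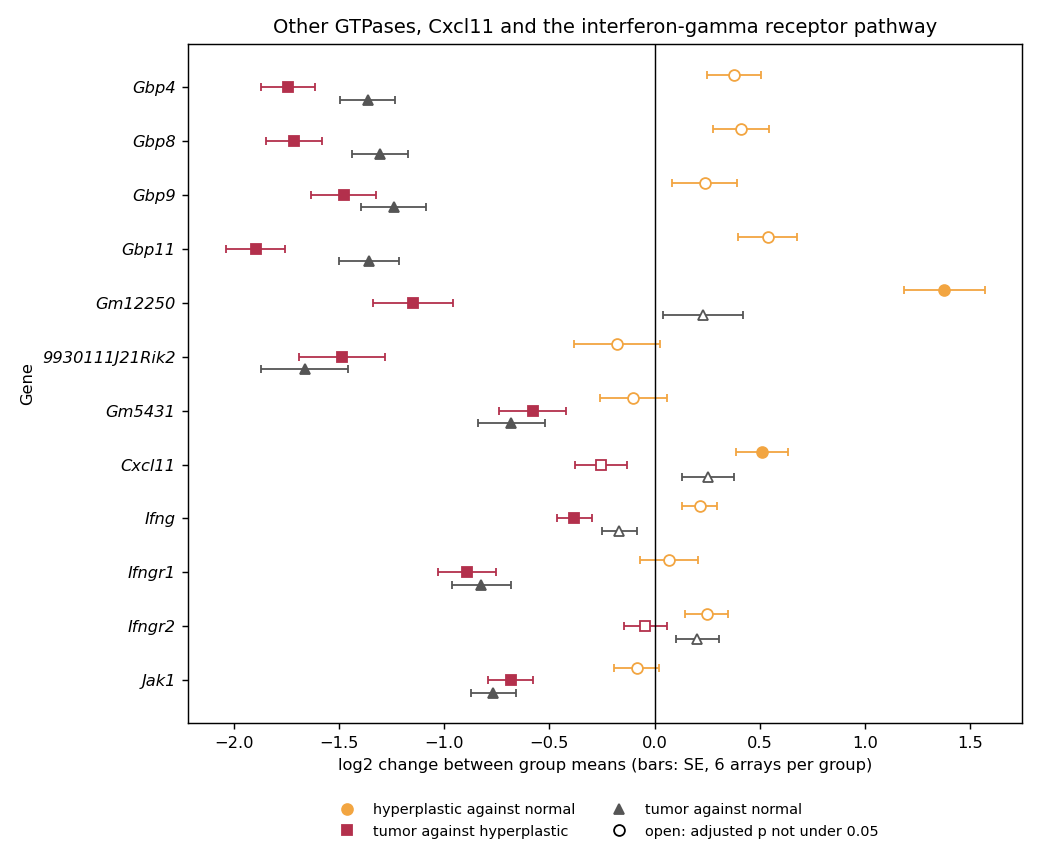
Log2 change (x axis, SE as bars, filled where the adjusted p was under 0.05) of 4 other GBPs, 3 other IRG genes, Cxcl11 and 4 genes of the ligand, receptor and kinase. The GBPs have tumor changes below -1.2 in both comparisons, Gm12250 has a filled rise of 1.38 in hyperplastic glands, and Ifngr2 has no filled symbol.

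Of the axis around the chemokine receptor Cxcr3, 4 of 5 other genes listed were measured. Cxcl11, measured here only as RNA, stayed near the yardstick. It ran from 5.37 to 5.62 in normal glands, from 5.71 to 6.28 in hyperplastic glands and from 5.46 to 6.21 in tumors. It was higher in hyperplastic than in normal glands by 0.51 (SE 0.12, adjusted p = 0.044), a call lost with either centring of the arrays (adjusted p = 0.0714 and 0.0538) and with the removal of any normal array or of Hyperplastic 1, 2, 3, 4 or 5 (0.0611 to 0.110). Ccl5, a T cell chemokine, fell by 1.56 from normal glands and fell by 1.76 from hyperplastic glands to tumors. Dpp4, a peptidase that trims and inactivates Cxcr3 ligands, fell by 2.33 and by 1.83.

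Upstream of interferon-gamma, 12 of 13 listed inducers were measured, of which 6 were lower in tumors against either group. Of all genes, 12.7% were called lower in tumors against normal and 8.57% against hyperplastic glands. Between hyperplastic and normal glands 0 of the 12 were called. There 1.01% of all genes were called higher and 0.655% lower, so a list this short can be without calls at that share. Stat4, which carries the interleukin-12 signal, fell by 1.81 from normal glands, from a median of 7.38 to 5.43. The interleukin-18 gene Il18 fell by 0.40 from normal glands, to a tumor mean of 5.31, below the yardstick. Il15ra, which presents interleukin-15, fell by 0.42, and Il12rb2, a chain of the interleukin-12 receptor, fell by 0.44 with means below the yardstick in all groups. Of 7 listed inhibitors of the pathway 6 were measured and 2 were lower in tumors in both comparisons. They were Irf2, a factor that competes with Irf1 (-0.57 against normal glands), and Ptpn6, a phosphatase (-0.55, adjusted p = 0.0216, and 0.0552 without Tumor 1). Of 9 measured IRF and STAT factors outside the group, 3 were lower in tumors in both comparisons, Irf2 among them, with Irf4 at -1.31 and Irf8 at -0.87 against normal glands.

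Among 16 measured targets of interferon-gamma outside these families, of 26 listed, 9 were lower and 0 higher in tumors than in hyperplastic glands. In that comparison 8.57% of all genes were called lower and 11.9% higher. Against normal glands 6 were lower and 3 higher, where 12.7% of all genes were called lower and 19.5% higher. The 3 of 16 that were higher thus lay near the share of all genes. Ciita, the switch for MHC class II genes, fell by 1.31 from normal glands, the DNA sensor gene Aim2 fell by 0.99, the related gene Mndal fell by 1.5 and the complement inhibitor gene Serping1 fell by 1.47. The 3 that were higher, named after their values were seen, were Fcgr1 (by 1.44), Nos2 (by 0.72) and Wars (by 0.20). In hyperplastic against normal glands 1 was higher, Wars, also named after its value was seen, where 1.01% of all genes were called higher.

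The antiviral genes that type I interferon induces included several that were higher in the tumors. Of 20 measured, 7 were higher and 0 lower in tumors than in normal glands, where 19.5% of all genes were called higher, with a median change of 0.22 against 0.04 over all genes. Oas1a, a sensor of double-stranded RNA, ran from 6.62 to 7.25 with a median of 6.74 in normal glands, from 7.14 to 8.03 with a median of 7.60 in hyperplastic glands and from 7.08 to 8.66 with a median of 8.31 in tumors. It rose by 1.32 from normal glands to tumors (SE 0.22, adjusted p = 0.000157), and its relative Oas2 rose by 1.43 (SE 0.33, adjusted p = 0.00247). Against hyperplastic glands 0 were higher and 2 lower, where 11.9% of all genes were called higher and 8.57% lower. The 2 of 20 that were lower thus lay near the share of all genes. They were Zbp1 and Trim30a, named after their values were seen. Without Tumor 1, where this list was lowest, Oas1a was higher in tumors than in hyperplastic glands by 0.77 (adjusted p = 0.00315). Whether the list as a whole differs from the 9 genes was not tested.

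Within the groups, the 9 genes varied together from array to array. After each group's mean was taken off, the correlation of a gene with the mean of the other 8 over the 18 arrays ran from 0.62 for Cxcl10 to 0.84 for Gbp3. Of 17040 genes compared outside the group, the 5 most like its mean were Herc6 (r = 0.91), Gbp8 (0.88), Gbp9 (0.88), Parp14 (0.88) and Znfx1 (0.86). Without Tumor 1, an exclusion chosen after seeing the data, the members' values ran from 0.55 for Cxcl10 to 0.74 for Irgm1, and those of the 5 genes from 0.63 for Znfx1 to 0.84 for Gbp8. Arrays that share a low or high overall signal raise such values, so they are given as a description. Hyperplastic 4 was the lowest hyperplastic array for 8 of the 9 genes and Normal 1 the lowest normal array for 7. The mean of the 9 correlated with that of the 4 other GBPs at 0.87, and at 0.82 without Tumor 1. With the 20 type I antiviral genes it correlated at 0.74, and at 0.25 without Tumor 1. With 10 reference genes, listed for centring the arrays, it correlated at 0.18, and at 0.63 without Tumor 1. The latter lies within the range of the members' own values without Tumor 1.

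**Figure D5:**
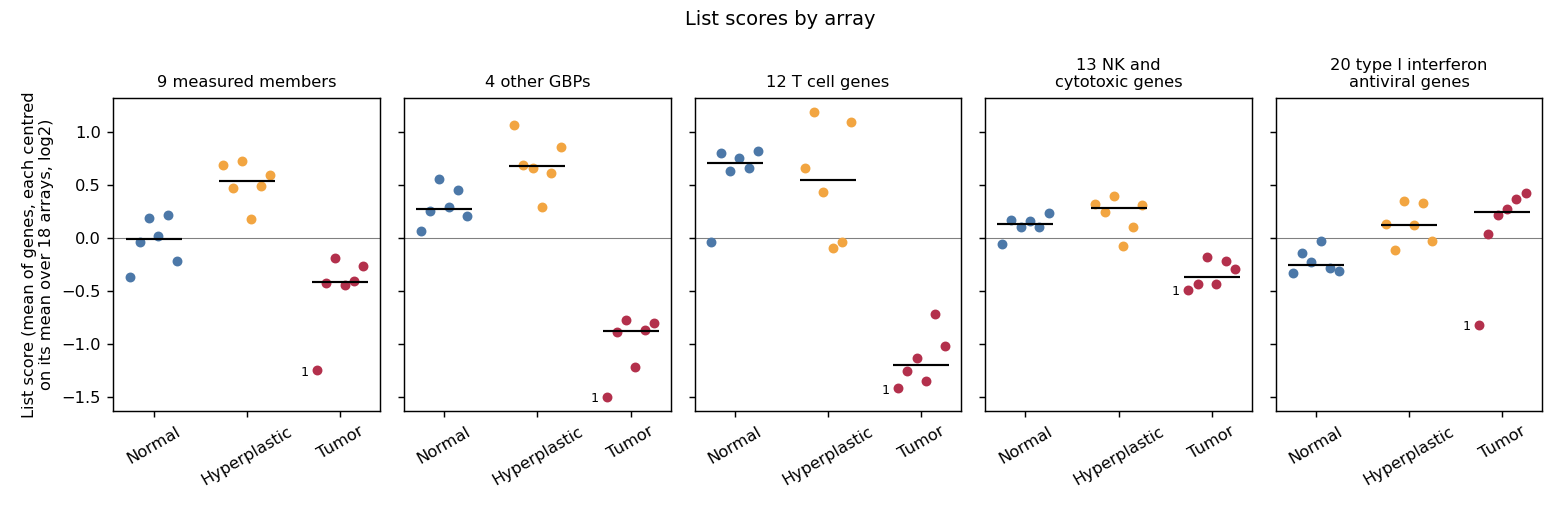
Score of 5 gene lists in the 18 arrays (y axis, mean of the list's genes after each was centred on its mean over all arrays, log2), replicates 1 to 6 from left to right, medians as lines and Tumor 1 marked 1. The tumors lie below both other groups for T cell, NK and other GBP genes, while for type I antiviral genes 5 of 6 tumors lie above every normal gland and Tumor 1 is the lowest array of all.

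The arrays hold whole tissue, where fewer cells of a type and less RNA per cell cannot be told apart, and marker lists moved with the group. Of all genes, 12.7% were called lower and 19.5% higher in tumors against normal glands, and 8.57% and 11.9% against hyperplastic glands. In tumors 12 of 12 T cell genes were lower in both comparisons, and 8 of 13 natural killer and cytotoxic genes against normal and 10 of 13 against hyperplastic glands. The T cell score ran from -1.42 to -0.72 in tumors, from -0.09 to 1.19 in hyperplastic glands and from -0.04 to 0.83 in normal glands, and the natural killer score from -0.49 to -0.18, from -0.07 to 0.40 and from -0.05 to 0.24. B cell genes (8 of 8), fat cell genes (8 of 8) and dendritic cell genes (8 of 10 against normal, 7 of 10 against hyperplastic glands) were lower in tumors too, as were blood endothelium genes (9 of 9 against normal, 8 of 9 against hyperplastic glands). All 5 measured proliferation genes were higher in tumors in both comparisons. Of 9 macrophage genes 4 were higher and 2 lower against normal glands and none was called against hyperplastic glands. All T cell genes but 1 had tumor means above the yardstick, as 7 of 13 natural killer and cytotoxic genes did. The part of these shifts in the lower levels of the 9 genes was not tested.

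Between hyperplastic and normal glands, where Igtp, Irgm2 and Cxcl9 rose, 1.01% of all genes were called higher and 0.655% lower. A short list can thus be without calls at that share, and a change in cell content was not tested. In this comparison 0 of 12 T cell genes and 0 of 8 B cell genes were called, and the T cell median was -0.02. Of 13 natural killer and cytotoxic genes 1 was higher, Gzmk, whose normal mean of 4.73 lay below the yardstick. Of 9 macrophage genes 1 was lower, Cd163, and of 10 dendritic cell genes 1 was lower, Cd209a. Gzmk, Cd163 and Cd209a were named after their values were seen. Of 9 endothelium genes 2 were lower, Tek and Emcn, also named after their values were seen, and of 5 measured proliferation genes 3 were higher. Within the groups the mean of the 9 genes correlated with the T cell score at 0.42, the natural killer score at 0.63 and the macrophage score at 0.24, over 18 arrays that share their overall signal.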

How the data were processed

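RNA of 18 mammary samples was hybridized to Affymetrix whole-transcript arrays (RNeasy extraction, 200 ng of total RNA, WT Plus kit). The deposited values are log2 levels that the authors normalized with RMA. The labels' notes name Affymetrix Expression Console and Partek and the study's methods name a later console, so the software that made the table is unsettled, and the genome build is not given in the sources used here. RMA sets the arrays to one distribution, so shifts common to all genes are not seen. The table held 58803 transcript clusters and 6732 control entries. A platform annotation named 29266 clusters, 27309 of them with 1 symbol, which gave 27030 genes after the highest cluster was taken for the 198 genes with several. Genes on autosomes after 16 were almost all outside the table (2 entries) and are not analysed here.

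Group means were fitted with limma 3.58.1 (R 4.3.3) on all 18 arrays, with 3 contrasts, two-sided moderated tests and Benjamini-Hochberg adjustment over all genes. The fit was tested on simulated data. The number of arrays limits the precision, no batch is recorded, and replicate numbers were assigned no meaning beyond the labels. The 10 genes and all lists were chosen with earlier results of these data known. Named list genes are up to 4 per list in order of adjusted p in tumor against normal, among those called in any comparison, all measured genes of the ligand and receptor list, and the 5 genes most like the group. Alternatives were 3 scalings, a filter at the olfactory receptor yardstick, trend and robust estimation, array weights, fits of 2 groups, a replicate block, the methods' rule (absolute log2 change over 2, unadjusted p under 0.05), the mean of all clusters, and arrays left out. Promoters came from RefSeq (GRCm38.p6). The NF-kappaB form was taken after a form longer by 1 G had no match in the 9 genes.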

Additional observations from a re-analysis of the deposited data

Results flagged for a closer look

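Of 27 checks of a gene in a group of 6 arrays, 4 held an array whose distance to its nearest neighbor took up most of the group's range (Dixon's criterion), where chance flags about 1 in 20. In Tumor 1 the level of Igtp was 7.20, that of Irgm2 was 5.95 and that of Irf1 was 7.36, against next lowest tumor levels of 8.15, 6.67 and 8.28. In Normal 1 the level of Igtp was 7.62 against a next lowest of 8.14. Without Tumor 1 the change of Irf1 was -1.13 against normal and -0.93 against hyperplastic glands, and that of Igtp against hyperplastic glands was -0.90, all still called.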

How the results depend on the processing

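The 9 tumor against hyperplastic calls and the 4 tumor against normal calls held in every alternative that kept the adjusted p rule. Under the methods' rule 0 members were called in any comparison, with 217 genes lower and 54 higher for tumor against normal, 142 and 3 for tumor against hyperplastic, and 3 and 4 for hyperplastic against normal. Of the 10 measured reference genes, 5 were themselves called higher and 2 lower in tumors than in normal glands. Against hyperplastic glands 4 were higher and 1 lower, so they are not a stable base for the tumor comparisons. Centring on them moved the calls over all genes to 3392 higher and 3771 lower for tumor against normal (47.4% higher, from 60.6%). The counts were 1286 and 2961 for tumor against hyperplastic (30.3%, from 58.2%), and 120 and 66 for hyperplastic against normal. The last comparison was the least stable, with 160 higher and 171 lower with arrays centred on their medians (48.3% higher, from 60.8%), 164 higher with an intensity trend and robust estimation together, 1549 higher and 822 lower with array weights, and 1002 and 522 with only its 2 groups, where 6 members were called in each of the latter pair of settings. With 1 array left out its calls ran from 88 to 377 higher and 80 to 233 lower, and member calls from 2 to 5. Without Tumors 3 and 6 and Hyperplastic 3 together, 2 members were called, Irgm2 being lost (adjusted p = 0.0695). The change of Irgm2 against normal glands turned to -0.006445 with reference genes, to -0.003803 with array weights and to -0.007974 without those 3 arrays, and ran from -0.033 (without Tumor 5) to 0.20 with 1 array left out. That of Ifngr2 against hyperplastic glands ran from -0.095 to 0.070, above 0 without Tumor 1. In hyperplastic against normal, the left-out ranges that crossed 0 were -0.16 to 0.0047 for Gm5431, -0.22 to 0.029 for Stat4, -0.090 to 0.040 for Irf2 and -0.18 to 0.039 for Ciita, each turned without Hyperplastic 4, and -0.027 to 0.15 for Irf8, turned without Hyperplastic 2, Hyperplastic 6 or Normal 1. None of these was called, and the cause was not tested. After each group's mean was taken off, same-numbered samples of different groups correlated from -0.21 to 0.42. Such values cannot settle whether any of them came from the same mouse, so pairing is unknown. The replicate block left 4, 9 and 3 members called and 284 genes higher in hyperplastic glands, and it changed the call of Cxcl11 alone among named genes (adjusted p = 0.0575).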
